A study of Mus musculus with 6 samples.

Results

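The genes described are 9 that encode secreted factors of tissue remodelling, with the protease that matures many such factors: *Areg*, *Hbegf*, *Tgfb1*, *Inhba*, *Angptl2*, *Esm1*, *Mmp13*, *Tff1* and *Furin*. They are 9 of the 16381 genes given a value in the expression table. They were chosen by name, for the class of protein they encode, and several of them were picked because they were lower with melatonin in these same libraries. Their levels are therefore given as a description, without a test. Bulk RNA sequencing was performed on group 2 innate lymphoid cells (ILC2s) sorted from mouse lung and cultured with melatonin or with its vehicle. The donors were wild-type BALB/c mice, described in the methods as females aged 6 to 8 weeks, and all received intranasal IL-33 at 0.5 µg per day for 3 days, so that both groups hold activated ILC2s (aILC2s) and no cells from unchallenged lungs. The cells were sorted as CD45+, lineage-negative cells carrying CD127 and ST2, at a stated purity above 95%. They were then kept for 24 h with 250 µM melatonin or with DMSO, with 3 libraries in each group.

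ILC2s are tissue-resident lymphocytes that respond to epithelial alarmins such as IL-33. Besides type 2 cytokines they release amphiregulin, a ligand of the epidermal growth factor (EGF) receptor known for its part in airway repair. EGF family ligands are made as membrane precursors and are freed by ADAM sheddases, whereas transforming growth factor beta (TGF-β) and activins are dimers cut from longer precursors by furin and its relatives. Matrix metalloproteinases cleave collagens and other matrix proteins, and trefoil factors are small peptides of mucosal surfaces.

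The estimated library totals ran from 17056255 to 20511698 counts. Levels are the deposited normalized counts, which are estimated counts divided by 1 size factor per library. Over all 14419 genes tested, the median log2 difference between melatonin and vehicle was −0.00. All 10 ILC2 markers had a value, and their summed level was 116250 to 123048 with vehicle and 98595 to 101158 with melatonin, with 2 higher and 4 lower. T cell markers, of which *Cd4* and *Cd8a* are not among the listed genes, summed to 6049 to 6577 and then 2127 to 3175, and B cell markers to 289 to 322 and then 131 to 162. Lists for fibroblasts, for mast cells and basophils, and for eosinophils and neutrophils reached at most 86.3, 80.4 and 70.9. *Xist* and *Ddx3y* separated the libraries in a way the groups do not. *Xist* was at 5.81 to 13.6 with vehicle, at 0 in melatonin replicate 1, and at 579 and 1091 in melatonin replicates 2 and 3. *Ddx3y*, on the Y chromosome, was at 746 to 907 with vehicle, at 1071 in melatonin replicate 1 and at 0 in the remaining melatonin libraries. Its presence in all vehicle libraries and in melatonin replicate 1 goes against the female sex given for the donors, and the sex of the donors and the treatment were not separated in the comparisons below. All 9 genes described lie on autosomes, and their differences are also given for melatonin replicate 1 alone against the vehicle libraries. In bulk RNA, fewer cells of a type and less RNA per cell cannot be told apart. The labels do not say whether the libraries of a group came from separate mice or cultures, so the adjusted p-values below measure the spread between these libraries, which may be technical. The library numbers in the labels form a separate run for each group, so anything that follows these numbers and the treatment cannot be told apart.

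All 9 genes were lower in every melatonin library than in any vehicle library. Among all genes tested, 30.3% showed that order and 30.0% the opposite one, and 49.2% passed the test, 24.7% as lower and 24.5% as higher; because the contrast was used in choosing the genes, nothing is read from their count. The 9 genes fell into a set that kept between 31.2% and 62.9% of the vehicle mean (*Areg*, *Hbegf*, *Tgfb1*, *Furin*) and a set that kept less than 3% (*Inhba*, *Angptl2*, *Esm1*, *Mmp13*, *Tff1*). *Tff1*, at 2.98%, had the highest remaining share in the second set.

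**Figure D1:**
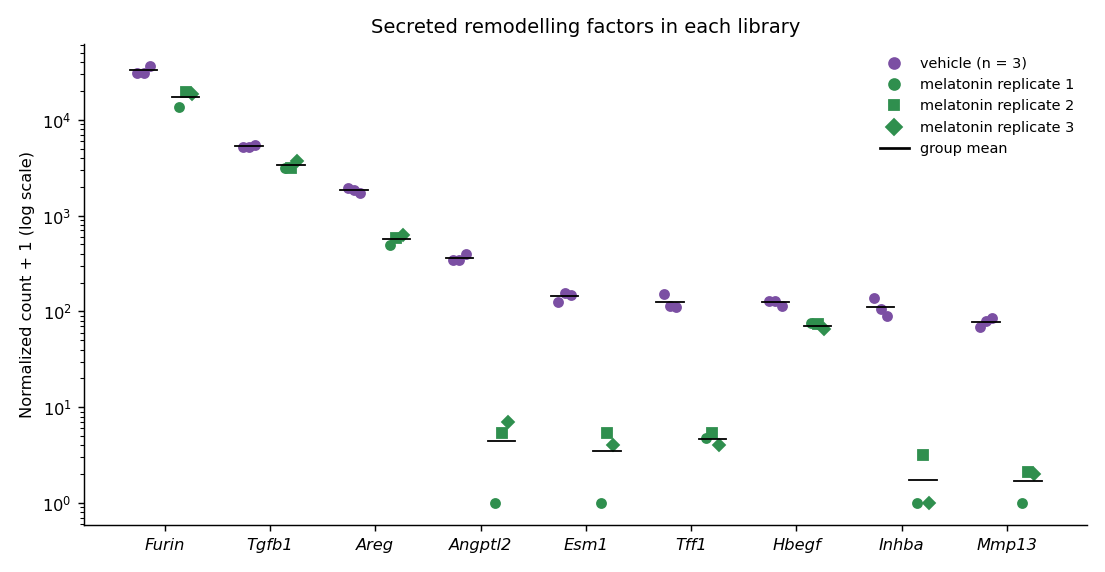
Normalized count plus 1 of each of the 9 genes in each library, on a log axis, with the vehicle and melatonin libraries as points (n = 3 each) and the group mean as a line. The melatonin points lie below the vehicle points for each gene, and those of *Inhba*, *Angptl2*, *Esm1*, *Mmp13* and *Tff1* lie near the foot of the axis, at 6.03 normalized counts or less.

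The promoters of 4 of these genes are shown because they represent both sets and hold motif matches: *Areg* for the genes that kept a part of their level, and *Inhba*, *Angptl2* and *Mmp13* for those near 0. Of the 9 genes, 7 matched the RefSeq promoter table of build GRCm38.p6, with 8 windows because *Furin* has a pair of starts. *Hbegf* and *Tff1* did not match. Each sequence is the 180 bases before the annotated start, on the plus strand, 5′ to 3′, with the matches of the motifs named afterwards in capitals. The windows lie at chr5:91139419-91139598 for *Areg*, chr13:16011671-16011850 for *Inhba*, chr2:33215781-33215960 for *Angptl2* and chr9:7272334-7272513 for *Mmp13*.
Areg: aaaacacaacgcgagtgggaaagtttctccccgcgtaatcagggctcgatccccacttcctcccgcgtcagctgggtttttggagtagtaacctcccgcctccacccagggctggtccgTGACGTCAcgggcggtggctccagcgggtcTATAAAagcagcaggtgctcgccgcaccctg
Inhba: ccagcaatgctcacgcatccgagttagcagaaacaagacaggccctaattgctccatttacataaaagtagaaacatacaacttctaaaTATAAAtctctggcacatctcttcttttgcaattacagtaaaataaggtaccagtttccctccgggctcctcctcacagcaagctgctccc
Angptl2: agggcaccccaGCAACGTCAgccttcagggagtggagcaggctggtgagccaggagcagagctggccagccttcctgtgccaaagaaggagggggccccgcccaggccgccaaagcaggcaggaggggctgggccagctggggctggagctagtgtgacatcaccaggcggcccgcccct
Mmp13: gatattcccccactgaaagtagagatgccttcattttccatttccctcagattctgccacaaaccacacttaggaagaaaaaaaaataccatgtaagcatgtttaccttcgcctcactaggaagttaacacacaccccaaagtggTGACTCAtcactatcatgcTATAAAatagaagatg

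Motifs were searched on both strands in all 32851 windows of the table. *Areg* holds TGACGTCA, the palindromic cyclic AMP response element, beginning 61 bases before its start, and these letters are in 1.45% of all windows. *Mmp13* holds the AP-1 site TGACTCA 35 bases before its start, a match to TGANTCA, which 4.97% of windows contain. TATAAA, the core of the TATA box, begins 31 bases before the start in *Areg*, 91 in *Inhba* and 16 in *Mmp13*, and one *Furin* window has it at 23 bases, against 8.94% of all windows. TGACNNNGC, the core of the antioxidant response element, is found on the opposite strand in *Angptl2* and in one *Furin* window, and 7.91% of all windows have it. No window of the 9 genes holds CACGTG, an E-box found in 4.81% of windows. GGGCGG, the GC box, is left in lower case, occurs in 4 of the 8 windows and in 30.2% of all, and is present 5 times before *Tgfb1*. The *Esm1* window, which is not shown, holds none of these motifs. The matches found describe letters in their windows and identify no bound factor.

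Among the EGF family ligands, *Areg* (ENSMUSG00000029378, GRCm39 chr5:91287451-91296291, plus strand) encodes amphiregulin. Its normalized counts were 1921, 1851 and 1722 in vehicle replicates 1, 2 and 3 and 497, 587 and 629 in melatonin replicates 1, 2 and 3. The groups were far apart relative to their spread, with means of 1831 ± 101 and 571 ± 67.7 (SD, n = 3 each), so that 31.2% of the vehicle level remained. The log2 difference was −1.69 and ran from −1.76 to −1.59 when each library was left out in turn. It was −1.88 for melatonin replicate 1 alone and −1.40 after a correction for transcript length. Per kilobase of exon, *Areg* went from rank 672 to rank 1988 among the genes tested.

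*Hbegf* (ENSMUSG00000024486, GRCm39 chr18:36637980-36649677, minus strand) encodes heparin-binding EGF-like growth factor. It was read at 128, 126 and 114 with vehicle and at 73.8, 72.1 and 64.3 with melatonin. The groups did not overlap, and replicates within a group differed little: 123 ± 7.43 against 70.1 ± 5.04, a log2 difference of −0.80. *Areg* dominated the summed per-kilobase level of the 7 EGF family ligands that had a value, at 98.0% ± 0.0948 with vehicle and 94.9% ± 1.86 with melatonin. The share of *Hbegf* went from 1.57% ± 0.0232 to 2.82% ± 0.470, since its level kept a larger part than that of *Areg*.

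The other ligands of the family were at low levels. Of the 9 listed besides *Areg* and *Hbegf*, 5 had a value and 3 were tested, with 1 higher (*Tgfa*), 1 lower (*Nrg4*) and 1 not called (*Btc*), where a call is an adjusted p below 0.05 by limma over all genes tested. The call of *Nrg4* was lost whenever any 1 library was left out. Of 12 tested genes for EGF receptors and sheddases, 4 rose and 5 fell, with a median log2 fold change of −0.16. Leaving out vehicle replicate 1 reduced the 4 to 2.

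*Adam17*, the main sheddase of amphiregulin and HB-EGF precursors, rose from 2637, 2844 and 2734 to 5462, 4927 and 4085, a log2 fold change of 0.81 ± 0.11 (SE; limma adjusted p = 0.0005). *Adam8*, another membrane metalloproteinase, fell from a mean of 9956 ± 191 to 5916 ± 539 (−0.75 ± 0.08, limma adjusted p = 0.00023). *Adam19* fell from 3525 ± 67.6 to 1954 ± 704 (−0.93 ± 0.24, limma adjusted p = 0.013). That call was lost without the mean-variance trend, and melatonin replicate 1, at 1143, was the lowest of its group; without it the difference was −0.58 and still called. *Egfr*, the receptor of amphiregulin, was close to the limit of detection, at 16.8, 9.37 and 17.8 with vehicle and 0, 0 and 1.01 with melatonin, and fell in the limma test (adjusted p = 0.0018). *Erbb2*, its partner receptor, stayed below 10 in every library and was not tested.

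*Tgfb1* (ENSMUSG00000002603, GRCm39 chr7:25386390-25404506, plus strand) encodes TGF-β1, a growth factor of both fibrosis and immune restraint. Its normalized counts were 5180, 5250 and 5501 with vehicle and 3138, 3151 and 3740 with melatonin. Melatonin replicate 3 lay above the other melatonin libraries and well below all vehicle libraries. The means were 5310 ± 169 and 3343 ± 344, a log2 difference of −0.67 (−0.76 to −0.63 with libraries left out). *Tgfb1* made up 94.9% ± 0.648 of the summed per-kilobase level of *Tgfb1* and *Tgfb3* with vehicle and 98.5% ± 0.332 with melatonin.

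*Inhba* (ENSMUSG00000041324, GRCm39 chr13:16186373-16206206, plus strand) encodes the inhibin βA subunit, which forms activin A as a homodimer. It was read at 137, 105 and 89.2 with vehicle and at 0, 2.19 and 0 with melatonin. Its transcripts were thus almost undetected after melatonin, with 2 estimated reads in the melatonin group against 344 in the vehicle group. The ratio of levels was 166, with a 95% interval of 45.6 to 1375 (exact binomial), which covers counting error only. The log2 difference of −6.22 depends on the pseudocount, with −8.58 at a pseudocount of 0.1 and −3.48 at 10.

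Other ligands and binding proteins of the TGF-β and activin family moved in both directions, with 3 higher, 4 lower and 7 not called of 14 tested. Their median log2 fold change was 0.06, and the 4 lower became 2 without vehicle replicate 1. *Tgfb3*, the TGF-β3 gene, fell from 288, 248 and 341 to 36.4, 50.3 and 69.4 (−2.50 ± 0.25, limma adjusted p = 0.00013). *Bmp2*, a bone morphogenetic protein gene, rose from 54.6 ± 7.44 to 214 ± 55.5 (1.93 ± 0.22, limma adjusted p = 0.00027). *Itgav*, the integrin αV subunit that takes part in releasing latent TGF-β, rose by a log2 fold change of 0.38 ± 0.11 (limma adjusted p = 0.018). The call of *Itgav* was lost without vehicle replicate 1 (0.31) or melatonin replicate 3 (0.32), and after the correction for length.

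Of 23 tested receptors and SMAD pathway genes, 9 rose, 5 fell and 9 were not called, with a median of 0.31. The 9 became 5 without vehicle replicate 1, and the 5 became 3 without vehicle replicate 2. *Tgfbr1*, the type I receptor of TGF-β, was at 483 ± 39.6 and 441 ± 55.4 and was not called. *Tgfbr2*, the type II receptor, rose from 4464 ± 116 to 5559 ± 660 (0.31 ± 0.09, limma adjusted p = 0.022), a call that was lost when vehicle replicate 1 (0.32), 2 (0.29) or 3 (0.32) was left out, without the trend, and after the correction for length (0.20).

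*Acvr2a*, a type II activin receptor, rose from 274, 247 and 212 to 513, 357 and 327 (0.69 ± 0.18, limma adjusted p = 0.014), and was not called without vehicle replicate 3 (0.59). *Acvr1b*, a type I activin receptor, fell from 88.3 ± 10.9 to 44.8 ± 9.68 (−0.98 ± 0.24, limma adjusted p = 0.0086). *Eng*, the co-receptor endoglin, fell from 233 ± 10.8 to 97.7 ± 11.9 (−1.25 ± 0.15, limma adjusted p = 0.00033). *Smad1*, a mediator of BMP signals, rose from 564 ± 43.3 to 1034 ± 97.9 (0.87 ± 0.11, limma adjusted p = 0.00032).

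*Smad4*, the SMAD shared by the TGF-β, activin and BMP branches, was uneven within the melatonin group. It was at 245, 290 and 350 with vehicle and at 1543, 1581 and 444 with melatonin. All melatonin values lay above all vehicle values, but melatonin replicate 3 was much closer to vehicle. The log2 fold change was 1.81 ± 0.43 (limma adjusted p = 0.0077) and 2.42 without melatonin replicate 3.

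*Furin* (ENSMUSG00000030530, GRCm39 chr7:80038333-80055184, minus strand) encodes the convertase that cleaves many growth factor precursors, TGF-β1 among them. Its normalized counts were 31070, 30727 and 36507 with vehicle and 13697, 19253 and 18492 with melatonin. It was the most abundant of the 9 genes in every library, and melatonin replicate 1 held the lowest value. The means were 32768 ± 3243 and 17147 ± 3012, so that 52.3% remained, and the log2 difference was −0.95 (−1.04 to −0.79 with libraries left out, −1.25 for melatonin replicate 1 alone). The gene *Gm44851* overlaps *Furin* on the other strand, and reads of the pair cannot be told apart without strand information. *Gm44851* was far lower than *Furin*, at 419 to 483 with vehicle and 139 to 357 with melatonin.

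Among the 6 convertases with a value, *Furin* made up 77.7% ± 1.96 of the summed per-kilobase level with vehicle and 62.9% ± 6.33 with melatonin. *Pcsk1*, the prohormone convertase 1 gene, went from 8.97% to 14.7% of that sum. *Pcsk7* went from 7.19% to 12.5%. Of 5 tested convertases other than *Furin*, 1 rose, 1 fell (*Pcsk4*) and 3 were not called, *Pcsk1* and *Pcsk7* among them. The higher gene was *Mbtps1*, the site-1 protease, at 2594 ± 31.2 and 3015 ± 131 (0.22 ± 0.07, limma adjusted p = 0.033). Its call was lost without vehicle replicate 1 (0.21), 2 (0.21) or 3 (0.23) or melatonin replicate 2 (0.19), with upper quartile scaling (0.17), without the trend, and after the correction for length (0.09).

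**Figure D2:**
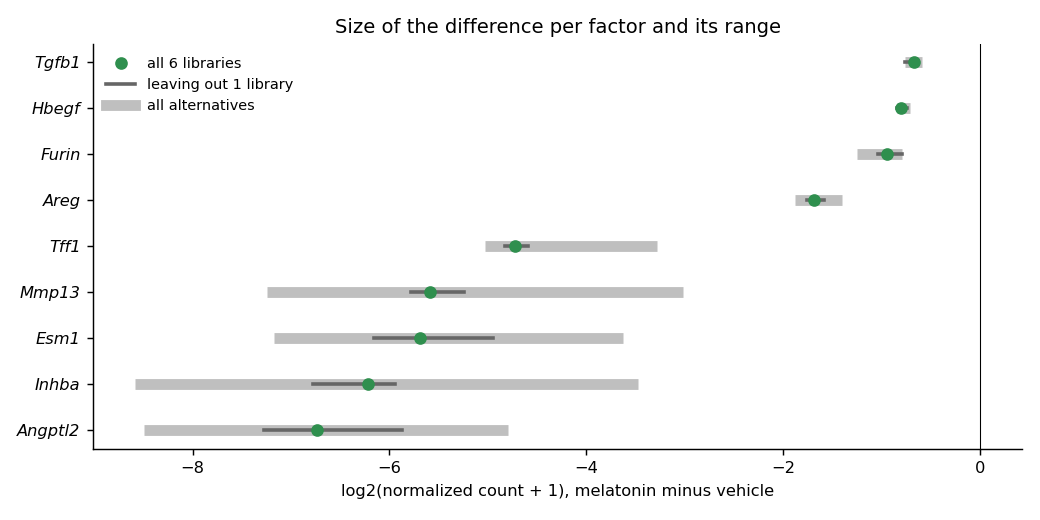
Log2 difference between melatonin and vehicle for each of the 9 genes with a pseudocount of 1, with a narrow dark bar for the range when 1 library is left out and a wide grey bar for the range over all alternatives. The values run from −0.67 for *Tgfb1* to −6.74 for *Angptl2*, and the grey bars are widest for *Inhba*, *Angptl2*, *Esm1*, *Mmp13* and *Tff1*, whose melatonin levels are near 0.

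*Angptl2* (ENSMUSG00000004105, GRCm39 chr2:33105946-33138252, plus strand) encodes angiopoietin-like protein 2, a secreted glycoprotein linked to inflammation and vessel growth. It was read at 343, 340 and 393 with vehicle and at 0, 4.37 and 6.03 with melatonin. The groups were separated by a wide gap, with 1105 against 10 estimated reads. The ratio of levels was 107 (95% exact binomial interval 57.7 to 223, counting error only), and the log2 difference of −6.74 became −5.87 without melatonin replicate 1 and −4.80 at a pseudocount of 10. *Angptl2* lies within *Ralgps1*, which is on the opposite strand and rose by 0.77 in these libraries, so that the direction of the host gene differed from that of *Angptl2*.

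*Esm1* (ENSMUSG00000042379, GRCm39 chr13:113346021-113354632, plus strand) encodes endocan, a secreted proteoglycan best known from endothelium. It was at 124, 156 and 149 with vehicle and at 0, 4.37 and 3.02 with melatonin. Again the melatonin values stayed near the limit of detection, with 7 estimated reads against 442. The ratio was 60.9 (95% exact binomial interval 29.3 to 152, counting error only) and the log2 difference −5.69, or −4.95 without melatonin replicate 1, −7.00 at a pseudocount of 0.1 and −3.63 at 10.

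The endothelial list was checked because both proteins are made by vessels. Of its 8 markers 3 had a value, and *Cdh5*, *Cldn5*, *Kdr*, *Tek* and *Emcn* are not among the listed genes. *Pecam1*, which leukocytes also express, held nearly all of the summed level, which was 1025 to 1070 with vehicle and 310 to 416 with melatonin. *Flt1* and *Vwf* reached at most 16.8 and 7.34 in vehicle replicate 3, and both were at 0 in all melatonin libraries. The CD45 gate of the sort is meant to exclude endothelial and epithelial cells. The epithelial transcripts *Scgb1a1* and *Sftpc* were nonetheless detected in every vehicle library. The part of endothelial RNA in the differences of *Esm1* and *Angptl2* was not tested.

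Of 15 tested angiopoietin-like and vascular growth factor genes, 2 rose, 6 fell and 7 were not called, with a median of −0.71. *Angptl4*, a regulator of lipoprotein lipase, fell from 196 ± 16.4 to 108 ± 18.8 (−0.86 ± 0.17, limma adjusted p = 0.0039). *Angptl6* rose from 81.6 ± 11.8 to 133 ± 6.40 (0.70 ± 0.18, limma adjusted p = 0.011). *Itgb1*, the integrin β1 subunit, rose from 1783 ± 37.0 to 2669 ± 502 (0.57 ± 0.12, limma adjusted p = 0.0056). The angiopoietin-like genes thus moved in both directions.

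Proteoglycan and matrix protein genes, the wider class of *Esm1*, were mostly not called, with 10 of 15 tested, 4 higher and 1 lower (*Loxl2*), and a median of 0.32. The lower count was 2 without melatonin replicate 1 or 3. The lysyl hydroxylase genes *Plod1* and *Plod2*, which modify collagen, both rose. *Plod1* went from 371, 318 and 361 to 1180, 932 and 958 (1.54 ± 0.12, limma adjusted p = 5.5e-05). *Plod2* rose by 0.63 ± 0.09 (limma adjusted p = 0.00068). *Sdc4*, the cell-surface proteoglycan syndecan 4, rose from 210 ± 8.37 to 370 ± 61.0 (0.80 ± 0.15, limma adjusted p = 0.0025).

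*Mmp13* (ENSMUSG00000050578, GRCm39 chr9:7272514-7283331, plus strand) encodes collagenase 3. It was at 67.2, 78.7 and 85.0 with vehicle and at 0, 1.09 and 1.01 with melatonin. No more than 1 estimated read was present in any melatonin library, and the group total was 2 against 237. The ratio was 114 (95% exact binomial interval 31.3 to 949, counting error only), and the log2 difference of −5.59 ran from −7.24 to −3.02 over pseudocounts of 0.1 and 10.

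*Mmp13* was a minor metalloproteinase of these cells, at 4.99% ± 0.679 of the summed per-kilobase level of the 15 members with a value in vehicle libraries and 0.197% ± 0.178 in melatonin libraries. *Mmp12*, macrophage elastase, had the largest share with vehicle, 57.9% ± 3.70, and 29.2% ± 14.5 with melatonin. *Mmp17* and *Mmp25*, both bound to the membrane by a lipid anchor, went from 1.95% to 23.5% and from 7.23% to 33.7% of that sum. The level of *Mmp25* itself was 221 ± 15.2 with vehicle and 230 ± 64.3 with melatonin and was not called.

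Of 19 tested matrix proteases and inhibitors besides *Mmp13*, 3 rose, 8 fell and 8 were not called, with a median of −1.10. *Mmp8*, neutrophil collagenase, fell from 236, 263 and 266 to 0.934, 9.83 and 10.1 (−5.38 ± 0.60, limma adjusted p = 0.00024; −4.55 without melatonin replicate 1). *Mmp12* fell from 2377, 2759 and 2151 to 167, 550 and 189 (−3.22 ± 0.38, limma adjusted p = 0.00029). *Mmp17* rose from 78.5 ± 13.7 to 216 ± 46.8 (1.44 ± 0.21, limma adjusted p = 0.00076). Of the tissue inhibitors, *Timp1* stayed below 10 in all libraries and was not tested. *Timp2* was at 29.1 ± 14.8 and 49.1 ± 15.9 and was not called, but passed the test without vehicle replicate 3 (1.16).

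Macrophage markers are relevant to *Mmp12* and *Mmp13*, which macrophages make. The 7 of 8 macrophage markers with a value summed to 1304 to 1481 with vehicle and to 362 to 785 with melatonin, with 3 of 6 tested lower. *Lyz2* supplied most of that sum, *Marco* is not among the listed genes, and *C1qa* and *C1qb* reached at most 15.9 and 7.50 with vehicle and were at 0 with melatonin. The lineage antibodies of the sort, CD11b and CD11c among them, are meant to exclude macrophages. *Lyz2*, *Cd68* and *Adgre1* were nonetheless detected in every library. The part of macrophage RNA in the differences of the metalloproteinases was not tested.

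*Tff1* (ENSMUSG00000024032, GRCm39 chr17:31380369-31384251, minus strand) encodes trefoil factor 1, a peptide of mucus-secreting epithelia. It was at 150, 113 and 109 with vehicle and at 3.74, 4.37 and 3.02 with melatonin. The melatonin libraries were close to each other, and the groups did not overlap. The estimated reads were 386 and 11, the ratio 33.8 (95% exact binomial interval 18.7 to 68.3, counting error only) and the log2 difference −4.73, or −3.28 at a pseudocount of 10 and −4.32 after the correction for length.

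Epithelial transcripts also differed between the groups and within the vehicle group. Of 12 epithelial markers 9 had a value, and of 8 tested 6 were lower and 1, *Epcam*, was higher with melatonin. Their summed level was 969 to 2537 with vehicle and 1061 to 1261 with melatonin, where *Epcam* made up most of it. *Scgb1a1*, the club cell secretoglobin, was at 95.2, 21.5 and 1045 with vehicle and at 0, 0 and 1.01 with melatonin. *Sftpc*, of alveolar type 2 cells, was at 155, 122 and 389 and then at 6.54, 5.46 and 3.02. *Sftpa1*, of the same cells, was at 93.3, 22.5 and 87.1 and then at 0, 3.28 and 0. The sort kept CD45+ cells, at a stated purity above 95%. The part of epithelial RNA in the difference of *Tff1* was not tested.

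**Figure D3:**
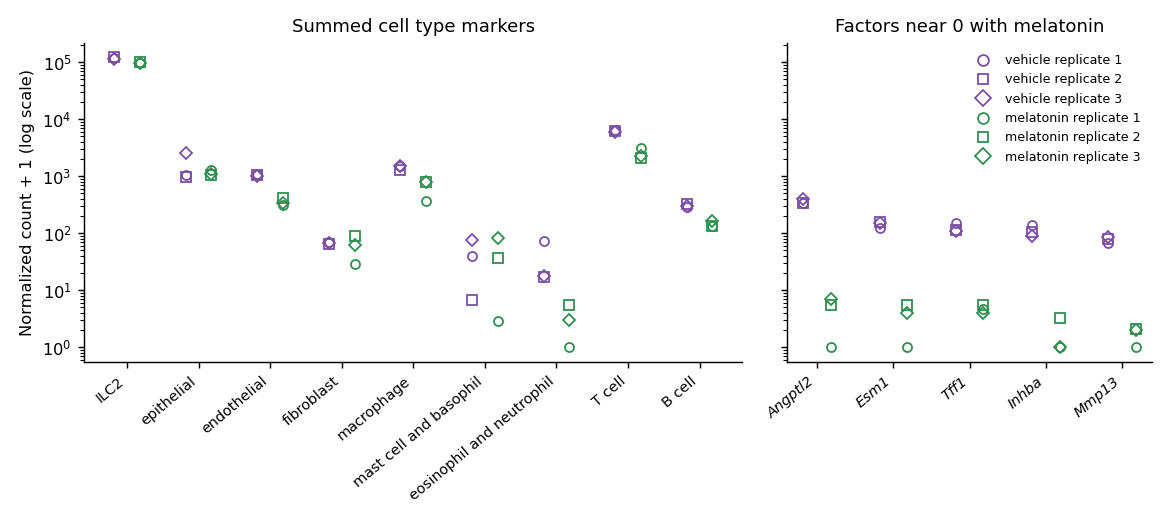
Summed normalized count of each cell type marker list in each library, plus 1 on a log axis, beside the same for *Angptl2*, *Esm1*, *Tff1*, *Inhba* and *Mmp13*, with vehicle and melatonin libraries in separate colours and a symbol for each replicate number. ILC2 markers sum to 98595 or more in every library, and the ILC2, macrophage, endothelial, T cell, B cell and eosinophil and neutrophil lists are lower in every melatonin library than in any vehicle library.

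Among the other repair proteins, 9 were tested, of which 1 rose, 4 fell and 4 were not called, with a median of −0.74. The higher gene, *Grn*, lost its call without vehicle replicate 2 (0.83 against 0.87) and was at 0.52 without melatonin replicate 1, and without vehicle replicate 3 the count of higher genes was 2. *Lif*, an IL-6 family cytokine gene, fell by 3.25 ± 0.23 on the log2 scale (limma adjusted p = 3.2e-05). *Retnla*, the resistin-like protein of alternatively activated cells, varied widely, at 258, 31.9 and 357 with vehicle and 1.87, 3.28 and 29.2 with melatonin. It fell by limma (adjusted p = 0.0084, log2 fold change −4.33 ± 1.04, −5.41 without vehicle replicate 2 and −3.67 without melatonin replicate 1), but the call was lost with voom on estimated counts, where the log2 fold change was −4.46.

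Over all 9 lists of pathway genes, 115 were tested, of which 28 (24.3%) rose, 35 (30.4%) fell and 52 were not called, with a median of −0.02. The corresponding shares over all genes tested were 24.5% and 24.7%, with a median of −0.00. The lists of matrix proteases, vascular factors, repair proteins and EGF receptors and sheddases had negative medians, and all other lists positive ones.

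**Figure D4:**
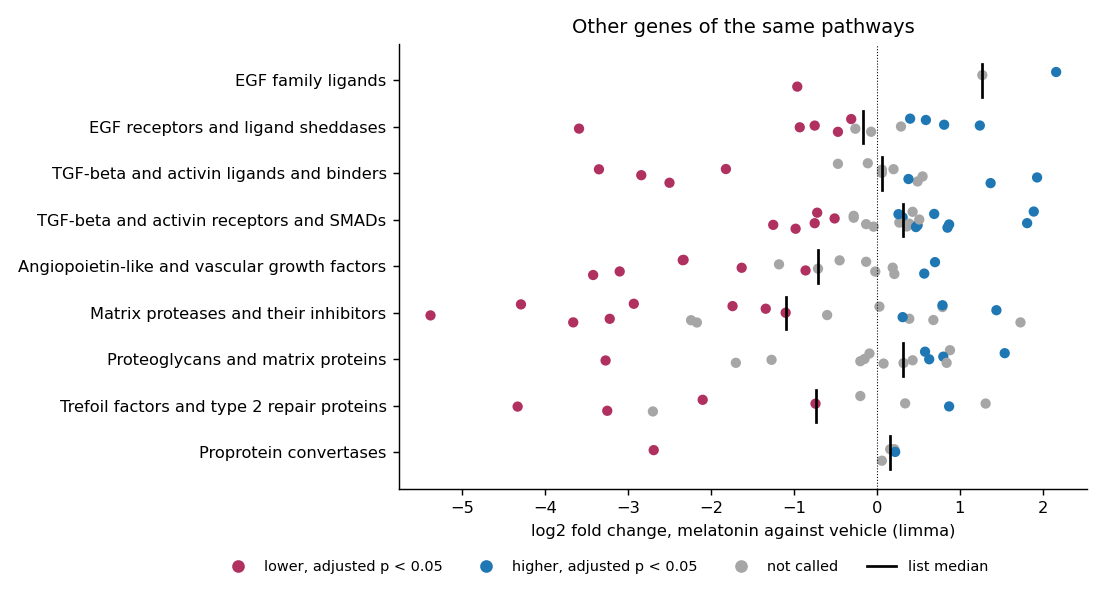
Log2 fold change of each tested gene in the 9 pathway lists, none of which holds a gene of the set of 9, with colours for the limma call and a bar at the list median. Genes lie on both sides of 0 in every list, with medians from −1.10 for matrix proteases to 1.27 for the 3 tested EGF family ligands.

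Per kilobase of exon, the order of levels with vehicle was *Furin* (3193), *Areg* (1499), *Tgfb1* (1045), *Tff1* (177), *Esm1* (63.1), *Angptl2* (47.1), *Mmp13* (28.8), *Hbegf* and *Inhba* (15.5). The library ranges of neighbours in this order did not overlap, but the lowest *Mmp13* value (25.1) was only just above the highest of *Hbegf*, whose lowest was 22.4. With melatonin the order was *Furin* (1671), *Tgfb1* (658), *Areg* (467), *Hbegf* (13.7) and *Tff1* (5.27), followed by *Esm1*, *Angptl2*, *Mmp13* and *Inhba*, whose ranges overlapped between 0 and 1.93. *Areg* and *Tgfb1* thus changed places, and *Hbegf* moved from below to above *Tff1*, *Esm1*, *Angptl2* and *Mmp13*.

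The 9 genes also differed in which melatonin library was lowest. Melatonin replicate 1 had the lowest value, ties included, for 7 of the 9, replicate 3 for 3 and replicate 2 for 0, with a tie at 0 for *Inhba*. Over all genes tested, 38.9% were lowest in melatonin replicate 1, and 56.9% of the genes called lower. For melatonin replicate 1 alone against the vehicle libraries, the differences were −0.73 for *Hbegf*, −0.76 for *Tgfb1*, −6.78 for *Inhba*, −8.49 for *Angptl2*, −7.17 for *Esm1*, −6.28 for *Mmp13* and −4.71 for *Tff1*. No difference changed sign in this library.

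Likeness of pattern was measured as the root mean square difference of centred log2 values over the 6 libraries, taking genes whose mean was 100 or more. For *Areg* the nearest genes were *Trerf1* (0.05), *Rgs1* (0.07) and *Mrps28* (0.09). For *Hbegf* they were *Zbtb38*, *Pspc1* and *Fam216a* (all 0.05), and for *Tgfb1* they were *Abcb8* (0.02), *Sit1* (0.03) and *Lpcat4* (0.04). *Furin* was nearest to *Prpf19* (0.04), *Eif5al3-ps* (0.05) and *Atrnl1* (0.07).

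For the genes with levels near 0 after melatonin, the nearest genes allowed by the same minimum mean lay further away. That minimum barred genes as low as *Inhba*, *Esm1*, *Mmp13* and *Tff1* themselves. The larger distances therefore cannot show whether these genes had fewer close neighbours. *Gzma* was among the nearest 3 for *Inhba* (0.67), *Angptl2* (0.62), *Esm1* (0.33) and *Mmp13* (0.29). The other nearest genes were *Plbd1* and *Il1r2* for *Inhba*, *Il24* and *Il1rn* for *Angptl2*, *Mmp8* and *Il1rn* for *Esm1*, and *Il1r2* and *Ifitm3* for *Mmp13*. *Tff1* was nearest to *Gm17590* (0.20), *Igfbp4* (0.21) and *Ccr2* (0.31). *Rgs1*, a regulator of G protein signals, fell from 11291, 10318 and 9529 to 3078, 3657 and 3939, which tracks *Areg* in each library at a higher level.

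The genes within 150 kb of each of the 9 were compared as a description of their position, by a window chosen after the values had been seen. Of 39 tested neighbours, 13 (33.3%) were lower, 5 higher and 21 not called, beside 24.7% lower and 24.5% higher over all genes tested, and *Inhba* had no tested neighbour. *Gzma*, the granzyme A gene, lies 108 kb from *Esm1* and went from 7021, 6797 and 5677 to 56.0, 160 and 190, a log2 fold change of −5.75. *Mmp12* lies 61.0 kb from *Mmp13*. The neighbour of *Areg*, *Mthfd2l*, was higher (0.43), a call lost without vehicle replicate 1 (0.41) or 3 (0.37) or melatonin replicate 2 (0.39).

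*Tff1* had neighbours in both directions, with *Ubash3a* (−3.53) and *Rsph1* (−2.59) lower and *Abcg1* higher (1.05). *Tgfb1* had 5 of 11 tested neighbours lower, among them *Axl* (−2.88), a receptor tyrosine kinase, and *B9d2* (−0.53). *Furin* had 2 of 13 lower, including the overlapping *Gm44851* (−0.92; not called without vehicle replicate 1, −0.86, 2, −0.93, or 3, −0.96, and −0.54 without melatonin replicate 1), and *Fes* was not called (−0.22).

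**Figure D5:**
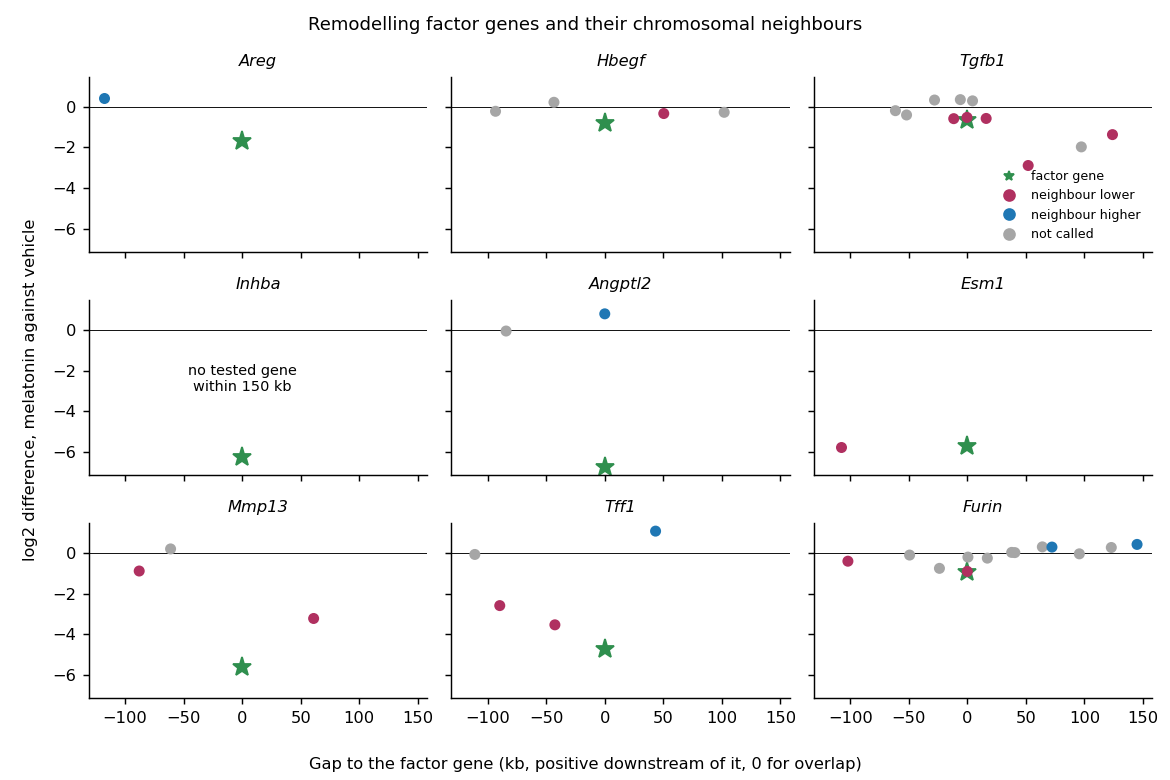
Log2 fold change of genes within 150 kb of each of the 9 genes against the gap to that gene in kilobases (positive downstream of it), with the gene itself as a star at 0 and colours for the limma call. Lower, higher and uncalled neighbours are mixed around *Tff1* and *Furin*, and lower and uncalled ones around *Tgfb1*, while the single tested neighbour of *Esm1*, *Gzma*, is lower.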

How the data were processed

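RNA of 3 melatonin and 3 vehicle libraries of sorted aILC2s was sequenced with a kit that does not mark strand. The authors aligned trimmed reads to mm39 with STAR in Partek Flow, assigned them to Gencode genes by expectation maximisation, removed low genes and divided the estimated counts by DESeq2 size factors. The deposited values were therefore treated as a signal, called normalized counts. Between 63.4% and 65.8% of values per library were whole multiples of 1 read (tolerance 0.01), so whole reads were not recovered, and no count test was run as the main one. Read numbers in the text are values divided by that of 1 read.

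The 9 genes, the pathway and marker lists and the motifs were chosen with earlier results of these data known. Genes that reached 10 in 1 or more libraries were compared with limma 3.58.1 in R 4.3.3 (eBayes with trend) on log2(value + 1), all 6 libraries, treatment as the sole term, Benjamini-Hochberg adjustment over 14419 genes, threshold 0.05. The 9 genes were part of this fit, but their p-values are neither given nor used, because several were picked by the same contrast. Of each pathway list, up to 3 called genes with the largest change, a mean of at least 100 and no overlap were named, with *Egfr*, *Erbb2*, *Tgfbr1*, *Tgfbr2*, *Acvr2a*, *Acvr1b*, *Adam17*, *Timp1* and *Timp2* whatever they did, and for each of the 9 the 3 genes nearest in pattern. Other genes, the neighbours included, were named after their values were seen. Names, positions and union exon lengths came from GENCODE M39 (GRCm39). Alternatives were other pseudocounts, filters, scalings and thresholds, no trend, voom, a replicate block and each library left out. The length correction and melatonin replicate 1 alone were added after seeing the data. The fit was tested on simulated data, and no result given here is drawn from that run. Single values of 1 gene that the naming rule selects are not reported here.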

Additional observations from a re-analysis of the deposited data

How the results depend on the processing

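The log2 differences of the 9 genes kept their sign under every alternative run, and 139 values moved by less than the spread between replicates. Another 18 moved more and came from the pseudocount, voom, quantile normalization, the length correction and melatonin replicate 1 alone, with *Inhba* from −8.58 to −3.48 and *Areg* from −1.88 to −1.40. Among all genes, 3529 higher and 3565 lower became 2188 and 2267 at an adjusted p under 0.01, and with 1 library left out ran from 2747 to 3454 and from 2708 to 3619. Among pathway genes, the 28 higher became 14 at an adjusted p under 0.01, and the 35 lower became 16 when the mean had to reach 100, where fewer genes were tested. With 1 library left out they ran from 20 to 28 and from 27 to 38. *Tgfbr1*, not called in any fit, changed sign to 0.02 in melatonin replicate 1 alone; the cause was not tested. Libraries with the same replicate number did not deviate together (correlations −0.11, 0.14 and −0.19), so the numbers were not taken as pairs. With the replicate number as a block, 3160 genes were higher and 3278 lower (pathway genes, 25 and 37), and *Mbtps1* and *Nrg4* lost their calls. At this depth, *Inhba* and *Mmp13* with melatonin rest on 2 reads each.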
